A study of Homo sapiens with 24 samples.

Results

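The subunits of the receptors for interleukin-4 (IL-4) and interleukin-13 (IL-13) were followed by RNA sequencing in sensory neuron cultures derived from human pluripotent stem cells (hPSC). The 4 genes IL4R, IL13RA1, IL13RA2 and IL2RG were taken by symbol from a table of 36468 entries, in which each symbol has 1 entry. All cultures came from the single wild-type embryonic stem cell line H9WAO9, which was taken through vagal neural crest over 12 days, spheroids over 4 days and sensory neuron differentiation over 6 days before weeks of maturation. In each of 6 differentiation batches, 1 culture received vehicle (0.1% bovine serum albumin in PBS), 1 TGF-β at 2 ng/ml, 1 IL-4 at 10 ng/ml together with IL-13 at 3 ng/ml, and 1 IL-6. The treatment lasted 5 days, and the labels give no dose for IL-6.

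IL-4 and IL-13 share receptor chains. The IL-4 receptor alpha chain IL4R pairs with the common gamma chain IL2RG in the type I receptor, which binds IL-4 and is typical of blood cells, and with IL13RA1 in the type II receptor, which binds either cytokine and is found on many non-haematopoietic cells. IL13RA2 binds IL-13 with high affinity but has a short cytoplasmic tail without the kinase-binding motif of the other chains, and it is best known as a decoy that takes up IL-13.

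The 24 libraries held 33342682 to 39817784 reads each. Levels are given as CPM, the counts of a gene per 1000000 reads of its library after scaling of library sizes. Levels of the 4 receptor genes were ranked against each other as CPM per kilobase of exon. Shares of reads, ratio tests, marker sums and levels of other genes were not corrected for exon length. Libraries of 1 batch resembled each other more than libraries of different batches (median correlation 0.638 over 36 pairs and -0.171 over 240 pairs). The vehicle library of batch 2 was an exception, with a mean correlation of 0.056 to its own batch and 0.424 to batch 4. In batch 4, 3 of the 4 libraries (all but the IL-6 library) were also closer to another batch than to their own. Among them, the vehicle library of batch 4 had a mean correlation of 0.165 to its own batch and 0.417 to batch 2. Whether the vehicle libraries of batches 2 and 4 were exchanged was not tested. The libraries came from whole cultures, so that fewer cells of a type and less RNA per cell cannot be told apart. Neuronal markers were present in every library, with a summed level of 1558 to 2666 CPM in batch 1 and 3343 to 11360 CPM in batches 2 to 6.

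The members lie on chromosomes 16 and X of GRCh38.p14. In the GENCODE annotation, IL4R spans chr16:27313668-27364778 on the plus strand and overlaps an antisense non-coding RNA. IL13RA1 spans chrX:118727133-118794535 on the plus strand and overlaps a small nucleolar RNA and a pseudogene. IL13RA2 spans chrX:115003975-115019977 on the minus strand and overlaps no other gene, and IL2RG spans chrX:71107404-71112108 on the minus strand and overlaps another protein-coding entry of the same strand. The strandedness of the counting is not given in the sources used here, so that reads of IL4R and of its antisense partner cannot be told apart. How reads in the overlap of IL2RG with the other entry were counted is not given either.

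The RefSeq promoter table of GRCh38.p14 had an entry for 3 of the 4 members, all but IL13RA2. The 100 bases before the start site of each entry are shown because the broadly expressed chains and the blood-cell chain differ plainly in them. The first is chr16:27313874-27313973 on the plus strand, the second chrX:118727506-118727605 on the plus strand and the third chrX:71111578-71111677 on the minus strand, and capitals mark CG dinucleotides. All 3 stretches lie inside the GENCODE spans given above, which begin further upstream, and the IL4R stretch also lies downstream of the RefSeq start of the gene at 27313756.
IL4R: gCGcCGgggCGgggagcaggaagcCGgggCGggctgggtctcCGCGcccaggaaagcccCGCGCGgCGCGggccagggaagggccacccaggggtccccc
IL13RA1: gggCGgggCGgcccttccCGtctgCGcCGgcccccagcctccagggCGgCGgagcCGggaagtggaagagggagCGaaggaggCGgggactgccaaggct
IL2RG: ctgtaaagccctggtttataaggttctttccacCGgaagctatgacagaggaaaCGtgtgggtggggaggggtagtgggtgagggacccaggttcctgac

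The IL4R stretch holds 12 CG dinucleotides and the IL13RA1 stretch 10, against 2 in IL2RG. Over the whole promoter entry of the table, which runs on past the start site, the GC content was 79.3% for IL4R, 76.3% for IL13RA1 and 50.3% for IL2RG, beside a median of 58.3% over 27305 promoters. That of IL4R was above 96.8% of all promoters and that of IL13RA1 above 92.9%, whereas that of IL2RG was below the median. The letters TTC and GAA with 4 bases between them, which describe a STAT6 site, were in none of the 3 promoters, and neither were TTC and GAA with 3 bases between them, which describe a general STAT site. They occur in 6.37% and 7.88% of all promoters of the same length, and both patterns read the same on either strand. TATAAA was found 1 time, in IL2RG, and occurs in 12.0% of all promoters on either strand.

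In vehicle-treated cultures, the type II receptor chains and IL13RA2 were well covered by reads, and IL2RG was not. IL13RA1 lay at a lowest of 114.8, a median of 137.9 and a highest of 299.2 CPM. IL4R lay at 24.31, 39.58 and 88.66 CPM, and IL13RA2 at 21.94, 40.79 and 256.7 CPM. The highest value of each of these genes was that of batch 1, which stood well above the other batches. Without batch 1, the vehicle mean of IL13RA2 was 36.16 ± 12.09 CPM (SD, n = 5), and with it 72.92 ± 90.68 CPM (SD, n = 6).

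Per kilobase of exon, IL13RA1 and IL13RA2 were the highest of the 4 in vehicle, followed by IL4R and, far below, IL2RG. The level of IL13RA1 was 34.77 ± 14.91 CPM per kilobase (SD, n = 6) with a median of 29.66, and that of IL13RA2 was 44.85 ± 55.78 with a median of 25.09. These neighbours did not differ beyond their spread, since IL13RA1 was higher in 5 batches and IL13RA2 in batch 1. IL4R stood at 7.474 ± 3.964 CPM per kilobase, which was 0.133 to 0.289 of the IL13RA1 level within the same library. IL2RG stood at 0.04187 ± 0.03049 CPM per kilobase, below IL4R in all 6 libraries. The exon lengths are those of all annotated transcripts joined. With the longest transcript alone, the mean log2 ratio of IL4R to IL13RA1 in vehicle was -1.72.

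**Figure D1:**
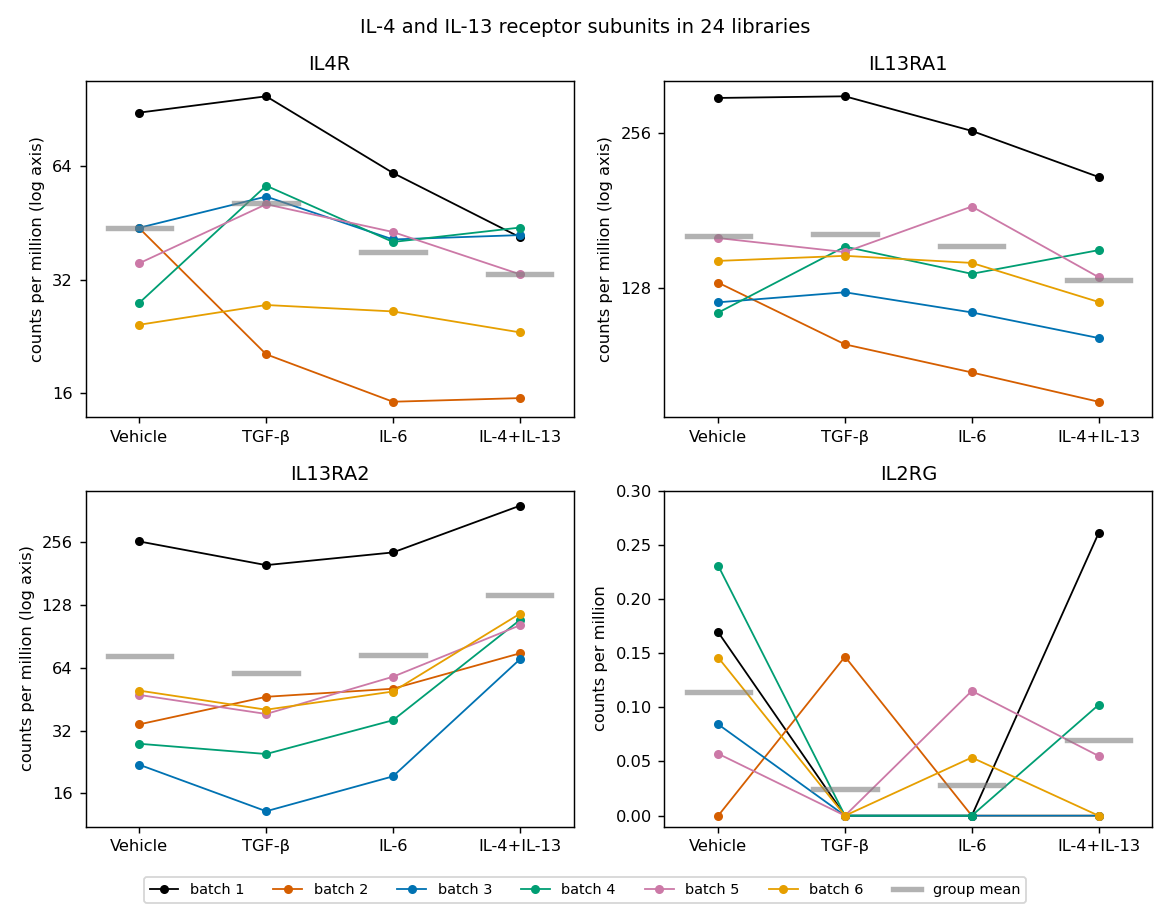
Levels of the 4 receptor subunits in CPM, by treatment, on a log axis for IL4R, IL13RA1 and IL13RA2 and on a linear axis for IL2RG. Points are libraries, lines join the libraries of 1 batch and grey bars are group means (n = 6). Batch 1 is highest for IL13RA2 in all 4 groups, at 197.8 to 380.2 CPM, and the IL-4 + IL-13 library is the highest of its batch for IL13RA2 in all 6 batches.

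IL2RG, the chain that would complete a type I receptor, gave 53 reads in all 24 libraries together, and 13 libraries had none. Reads in its overlap with the other entry of the same strand may be missing from these counts, which was not tested. The vehicle libraries of batches 1 to 6 held 6, 0, 3, 9, 2 and 6 reads. The IL-4 + IL-13 libraries held 10, 0, 0, 4, 2 and 0 reads, the TGF-β libraries 5 reads in batch 2 and none elsewhere, and the IL-6 libraries 4 and 2 reads in batches 5 and 6 and none elsewhere. The groups overlapped, and no comparison called IL2RG. The adjusted p of edgeR's quasi-likelihood test against vehicle was 0.837 for IL-4 + IL-13, 0.854 for TGF-β and 0.85 for IL-6.

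As counted, the ratio of the type I chain IL2RG to the type II chain IL13RA1 was therefore close to 0 in every group. IL2RG made up 0.0401% of the 132096 reads on either gene (exact 95% binomial confidence interval 0.0301 to 0.0525%, counting error only). The share in the vehicle libraries was 0.0726% (0.0474 to 0.106%). It was 0.0542% under IL-4 + IL-13 (0.031 to 0.088%), 0.0182% under IL-6 (0.00669 to 0.0397%) and 0.0148% under TGF-β (0.0048 to 0.0345%). Within batches, the log2 ratio of IL2RG to IL13RA1 differed from vehicle by -0.86 ± 1.80 (SD, n = 6) under IL-4 + IL-13, with an exact sign-flip p of 0.312 and 0.442 after adjustment over 9 ratio tests. The adjusted value was also 0.442 for TGF-β and for IL-6. With 6 batches and 9 tests, a lone smallest p of 0.0312 becomes 0.281, so that these tests could hardly pass. The pooled counting interval of vehicle overlapped neither that of TGF-β nor that of IL-6, while the spread between libraries was wide. The 5 TGF-β reads all came from batch 2, and the 6 IL-6 reads from batches 5 and 6.

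Markers of blood cells, where IL2RG is normally abundant, were mixed in these cultures. Of 13 markers, the T-cell gene CD3E and the B-cell gene MS4A1 had no read in any library, and the myeloid factor SPI1 had 35 reads over all libraries. In contrast, PTPRC had 12325 reads, CORO1A 15666 and the lysosomal CD68 10725. The summed level of the list was 33.52 to 75.91 CPM in vehicle, 30.57 to 71.92 under TGF-β, 32.44 to 61.18 under IL-6 and 32.34 to 52.08 under IL-4 + IL-13. The part of such cells in the IL2RG reads was not tested.

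IL13RA2 rose under IL-4 + IL-13 and was the 1 member of the 4 that did. In batches 1 to 6 its level was 256.7, 34.25, 21.94, 27.65, 47.33 and 49.64 CPM with vehicle, and 380.2, 74.84, 69.99, 107.9, 101.9 and 115.7 CPM with IL-4 + IL-13. The treated library was higher in each batch, and the groups overlapped only through the vehicle library of batch 1. In batches 2 to 6 the treated libraries lay at 69.99 to 115.7 CPM and the vehicle libraries at 21.94 to 49.64 CPM. The fitted change was 2.47-fold (log2 fold change 1.31, SE 0.17, 95% confidence interval 0.94 to 1.67), with an adjusted p of 0.00077 in edgeR's quasi-likelihood test and of 3.21e-10 in DESeq2.

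A gene was called where its adjusted p was below 0.05 and its log2 fold change was larger than 1 either way. By this rule 0.371% of 29377 entries were called in the comparison, and 1 of the 4 receptor genes was among them. The log2 change of IL13RA2 within batches was 0.567, 1.127, 1.673, 1.964, 1.105 and 1.22 in batches 1 to 6. It was smallest in batch 1, where the vehicle level was highest, and largest in batches 4 and 3, where the vehicle level was lowest. The vehicle level is part of the change itself, so that this order is partly built in and no conclusion is drawn from it. The vehicle library of batch 4 is also the one that resembled batch 2 more than its own batch. The call did not hold without the batch term, at a log2 fold change of 0.96 and an adjusted p of 1. Treatment took 23.1% of the variance of log2 levels of IL13RA2, batch 72.6% and the remainder 4.33%.

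TGF-β and IL-6 gave no call on IL13RA2. The TGF-β libraries held a lowest of 13.15, a median of 39.32 and a highest of 197.8 CPM, and overlapped the vehicle range of 21.94 to 256.7 CPM. The log2 difference from vehicle was -0.23 (95% confidence interval -0.59 to 0.13, edgeR adjusted p = 0.892), with a lower level in 5 of 6 batches. The IL-6 libraries held 19.31, 49.94 and 227.5 CPM, and their log2 difference was 0.14 (-0.22 to 0.50, edgeR adjusted p = 0.903), and 3 of 6 batches were higher. Over all entries, 0.143% were called for TGF-β. For IL-6 0% were called by edgeR, while DESeq2 called 120 and 1400 entries had an edgeR p under 0.05 before adjustment.

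The treatments were then compared with each other, to see whether the rise of IL13RA2 set IL-4 + IL-13 apart from the other cytokines. IL13RA2 was 2.90-fold higher under IL-4 + IL-13 than under TGF-β (log2 difference 1.53, 95% confidence interval 1.16 to 1.91, edgeR adjusted p = 6.01e-05). It was 2.25-fold higher than under IL-6 (1.17, 0.80 to 1.53, edgeR adjusted p = 0.00174). Both differences had the same direction in 6 of 6 batches. In batches 2 to 6 the highest IL13RA2 level was 46.38 CPM under TGF-β and 57.85 CPM under IL-6, below the lowest IL-4 + IL-13 library at 69.99 CPM. The share of all entries called was 1.18% against TGF-β and 0.279% against IL-6, and IL13RA2 was the 1 member called in each. Fitted on the 12 libraries of the pair alone, the difference from IL-6 kept its size (log2 1.12) and missed the threshold (edgeR adjusted p = 0.0787). These comparisons share the IL-4 + IL-13 libraries.

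**Figure D2:**
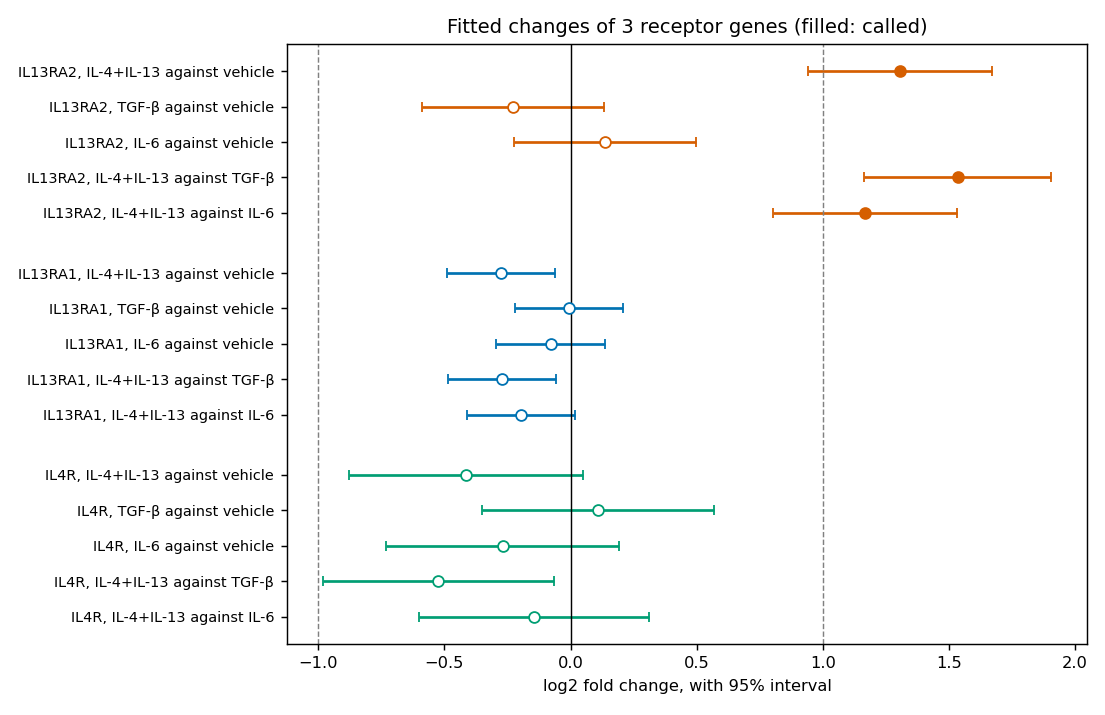
Fitted log2 fold changes of IL13RA2, IL13RA1 and IL4R in the 5 comparisons (n = 6 libraries a group), with whiskers for the 95% confidence interval, filled points for called changes and dashed lines at a log2 fold change of 1 in either direction. The 3 filled points are those of IL13RA2 under IL-4 + IL-13, at 1.31 against vehicle, 1.53 against TGF-β and 1.17 against IL-6.

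IL13RA1, the partner of IL4R in the type II receptor, was not called in any comparison. Under IL-4 + IL-13 its level was 77.13 CPM at the lowest, 127.4 at the median and 210.3 at the highest, overlapping the vehicle range of 114.8 to 299.2 CPM. The IL-4 + IL-13 library was below vehicle in 5 of 6 batches and above it in batch 4. The log2 difference was -0.28 (95% confidence interval -0.49 to -0.06), with an unadjusted p of 0.0147 and an adjusted p of 0.383 in edgeR. Over all entries 9.10% had an unadjusted p under 0.05 in this comparison.

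Averaged over the batches, IL13RA1 under TGF-β and IL-6 was close to the vehicle level, while single batches differed more. Within batches, the fold from vehicle ran from 0.759 in batch 2 to 1.34 in batch 4 for TGF-β. For IL-6 it ran from 0.67 to 1.19 in the same batches. The log2 difference was -0.01 for TGF-β (95% confidence interval -0.22 to 0.21) and -0.08 for IL-6 (-0.29 to 0.14), with edgeR adjusted p values of 1 and 0.905. Against TGF-β, the IL-4 + IL-13 library had less IL13RA1 in 6 of 6 batches, at a log2 difference of -0.27 and an edgeR adjusted p of 0.23. That p was 0.0366 with the treated libraries fitted alone, an alternative chosen after seeing the data, and 0.0721 to 1 in all other settings, at differences too small for a call. The difference from IL-6 was -0.20 (edgeR adjusted p = 1).

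IL4R, the chain common to both signalling receptors, was not called either. Under IL-4 + IL-13 it lay at 15.54 CPM at the lowest, 37.28 at the median and 43.97 at the highest, and the vehicle libraries overlapped this range. The log2 difference from vehicle was -0.41 (95% confidence interval -0.88 to 0.05, edgeR adjusted p = 0.61), and the treated library was higher in 1 of 6 batches. The within-batch differences were uneven, at -1.10 in batch 1, -1.49 in batch 2 and 0.66 in batch 4. In batches 3, 5 and 6 they were -0.065, -0.097 and -0.067. The vehicle libraries of batches 2 and 4, on which the differences of these batches rest, each resembled the other batch more than their own. The fitted difference was negative without any single batch, at -0.604 to -0.138, and 0.11 over batches 3 to 6, where batch 4 alone was above 0.

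The direction of IL4R under the other cytokines also turned on single batches. Under TGF-β it lay at 20.3, 51.92 and 97.93 CPM (lowest, median and highest), with a log2 difference of 0.11 (95% confidence interval -0.35 to 0.57, edgeR adjusted p = 0.978). Under IL-6 it lay at 15.2, 40.59 and 61.36 CPM, with a log2 difference of -0.27 (-0.73 to 0.19, edgeR adjusted p = 0.855). Without the vehicle library of batch 2 the difference for IL-6 was 0.02, and without batch 4 that for TGF-β was -0.04. In the direct comparison IL4R was lower under IL-4 + IL-13 than under TGF-β in 6 of 6 batches, by a log2 difference of -0.52 that missed the threshold (unadjusted p = 0.0272 and adjusted p = 0.304 in edgeR, with 12.2% of all entries under an unadjusted p of 0.05). The edgeR adjusted p was 0.044 without the vehicle library of batch 2 and 0.00814 with the treated libraries fitted alone, both chosen after seeing the data, at log2 differences of -0.512 and -0.534. The fold was then below that needed for a call, and the adjusted p over the other settings was 0.0655 to 1.

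In batch 2 the levels of IL4R and IL13RA1 set vehicle apart from all 3 cytokines. IL4R was 43.77 CPM with vehicle and 20.3, 15.2 and 15.54 CPM with TGF-β, IL-6 and IL-4 + IL-13, and IL13RA1 was 131.2 CPM with vehicle and 99.63, 87.9 and 77.13 CPM in the same order. This is the vehicle library that resembled batch 4 more than its own batch, and the vehicle library of batch 4 in turn resembled batch 2. The summed level of 11 mesenchymal markers was 8990 CPM in the vehicle library of batch 2 and 5188, 3916 and 4014 CPM in its treated libraries. In batch 4, where IL4R was lowest with vehicle (27.8 CPM against 56.78, 40.28 and 43.97), that sum was also lowest with vehicle, at 5869 CPM against 9954, 8003 and 7030. The neuronal sum moved the same way, at 8587 CPM with vehicle against 5081, 5463 and 5445 in batch 2, and 7583 against 11360, 8350 and 9601 in batch 4. The sum of 4 pluripotency markers moved the other way in batch 2, at 16.62 CPM with vehicle against 54.54, 53.42 and 49.98. It is mostly DPPA4, with a vehicle mean of 15.91 CPM, while NANOG had a vehicle mean of 0 and POU5F1 too few reads to be tested. The part of these cell types in the IL4R levels was not tested.

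IL13RA2 did not follow that pattern under IL-4 + IL-13. The mesenchymal sum was lower with IL-4 + IL-13 than with vehicle in 5 of 6 batches, for example 5146 against 11310 CPM in batch 1, while IL13RA2 was higher in 6 of 6. Much of that sum is the collagen gene COL1A1, at 3086 ± 1758 CPM in the vehicle cultures and 1591 ± 685 CPM in the IL-4 + IL-13 cultures (edgeR adjusted p = 0.168), whereas COL1A2 and PDGFRB had log2 differences of -0.14 and -0.06. None of the 11 mesenchymal and none of the 11 neuronal markers was called in this comparison, where 0.371% of all entries were. The sum of 4 endothelial markers was higher with IL-4 + IL-13 in 5 of 6 batches, as IL13RA2 was in all 6, for example 100.5 against 29.88 CPM in batch 4 and 57.45 against 24.66 CPM in batch 3, but 26.85 against 44.69 CPM in batch 2. Its range was 24.66 to 114 CPM with vehicle, 26.85 to 157.4 with IL-4 + IL-13, 14.61 to 73.78 with TGF-β and 10.18 to 83.12 with IL-6, and none of its 4 genes was called against vehicle. This sum is nearly all KDR, at a mean of 60.84 CPM with vehicle, while the defining endothelial genes PECAM1, CDH5 and VWF were near 0, at means of 0.545, 0.215 and 0.343 CPM. Against vehicle, the log2 difference of KDR was 0.469 under IL-4 + IL-13 (edgeR adjusted p = 0.649), -0.827 under TGF-β and -0.729 under IL-6. KDR was called higher under IL-4 + IL-13 than under TGF-β (log2 difference 1.297, edgeR adjusted p = 0.0116). Its difference from IL-6 was 1.199 and was not called (edgeR adjusted p = 0.075). Both differences had the same direction in 6 of 6 batches. Of 4 epithelial markers, the adhesion molecule CDH1 fell (log2 fold change -1.89, edgeR adjusted p = 0.00957). The part of these cells in the IL13RA2 rise was not tested. Between batches, vehicle libraries with more neuronal RNA had less IL13RA2. The neuronal sum in batches 1, 6, 5, 4, 2 and 3 was 1790, 3967, 5732, 7583, 8587 and 10750 CPM, and IL13RA2 in the same order was 256.7, 49.64, 47.33, 27.65, 34.25 and 21.94 CPM. The order was reversed but for batches 2 and 4, and the part of cell composition in it was not tested.

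**Figure D3:**
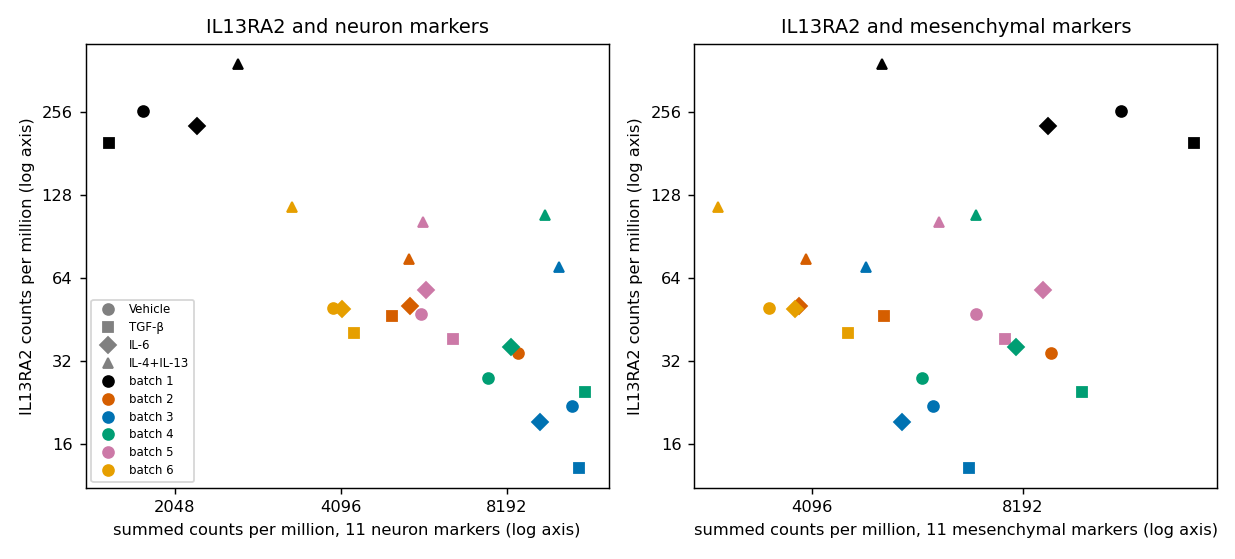
IL13RA2 level in CPM (y axis) against the summed CPM of 11 neuronal markers (left) or 11 mesenchymal markers (right) in the 24 libraries, on log axes, with shapes for the treatments and colours for the batches. The batch 1 libraries have the lowest neuronal sums, at 1558 to 2666 CPM, and the highest IL13RA2 levels, at 197.8 to 380.2 CPM.

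The balance of the decoy chain to its signalling counterpart was given by the ratio of IL13RA2 to IL13RA1 within each library. Per kilobase, this ratio was 0.522 to 2.45 with vehicle (median 0.796), 0.299 to 1.88 with TGF-β (median 0.754), 0.481 to 2.52 with IL-6 (median 0.939) and 1.95 to 5.17 with IL-4 + IL-13 (median 2.46). The decoy chain exceeded IL13RA1 in 1 of 6 vehicle libraries, 2 of 6 TGF-β libraries, 2 of 6 IL-6 libraries and all 6 IL-4 + IL-13 libraries. In batches 2 to 6 the lowest ratio under IL-4 + IL-13, 1.95, was above the highest of any other group, 1.65 with IL-6.

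Within batches the ratio was 2.92-fold higher under IL-4 + IL-13 than with vehicle (mean log2 difference 1.55 ± 0.32, SD, n = 6), with the same direction in 6 of 6 batches and a range of 1.07 to 1.90. The exact two-sided sign-flip test gave p = 0.0312, the smallest value that 6 batches allow, and 0.281 after adjustment over the 9 ratio tests. The ratio under TGF-β differed by -0.25 ± 0.57 on the log2 scale (exact p = 0.344, adjusted 0.442) and under IL-6 by 0.21 ± 0.46 (exact p = 0.25, adjusted 0.442). Batch 2 stood apart here too, with 0.83 for TGF-β and 1.14 for IL-6, while the other batches lay between -0.80 and -0.21 for TGF-β and between -0.12 and 0.12 for IL-6.

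The ratio of IL4R to IL13RA1, the type II chains, was not called different by any test. Per kilobase its median was 0.213 with vehicle, 0.262 with TGF-β, 0.186 with IL-6 and 0.177 with IL-4 + IL-13. The mean log2 difference from vehicle was -0.09 ± 0.44 for IL-4 + IL-13, 0.16 ± 0.48 for TGF-β and -0.14 ± 0.45 for IL-6 (SD, n = 6). The exact sign-flip p values, adjusted over the 9 ratio tests, were 0.656, 0.442 and 0.656. Batch 2 was the lowest under all 3 treatments, at -0.727, -0.711 and -0.947. Without it the mean for TGF-β was 0.34, with all 5 remaining batches above 0, and over batches 3 to 6 that for IL-4 + IL-13 was 0.194, with all 4 above 0.

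**Figure D4:**
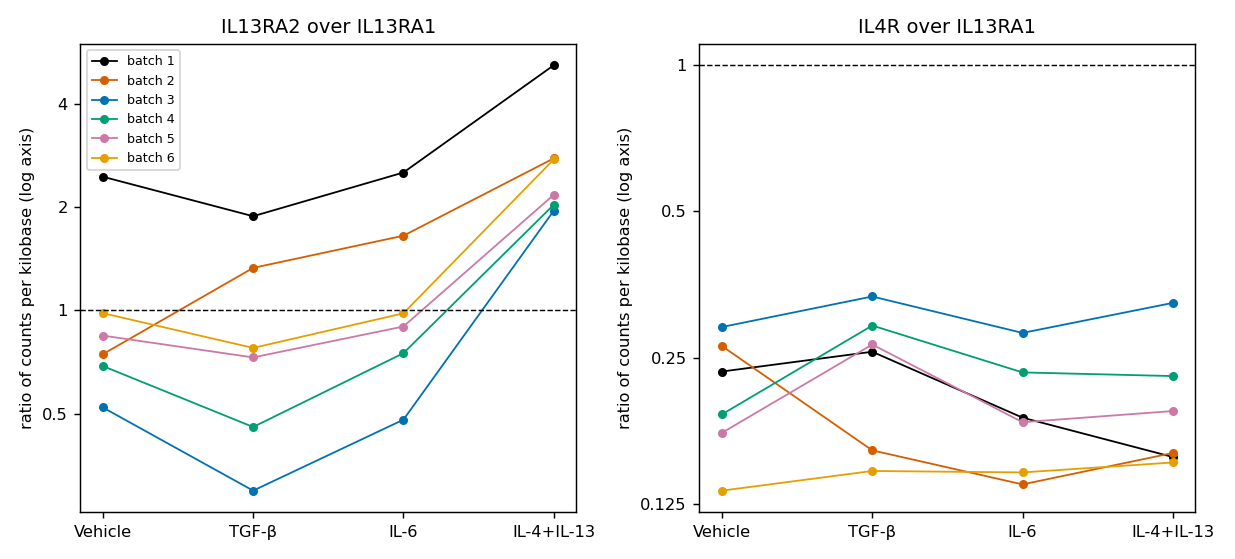
Ratio of IL13RA2 to IL13RA1 and of IL4R to IL13RA1 per kilobase of exon in each library, by treatment, on log axes, with lines joining the libraries of 1 batch and a dashed line at a ratio of 1. All 6 IL-4 + IL-13 libraries have more IL13RA2 than IL13RA1, at ratios of 1.95 to 5.17, against 1 of 6 vehicle libraries.

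IL4R and IL13RA1 varied together once batch means were removed (Pearson's r = 0.87 over 24 libraries, 0.81 over 20 libraries without batch 2). IL13RA2 ran weakly against both, at -0.38 with IL4R and -0.45 with IL13RA1. These correlations are descriptions, and the libraries share batches and treatments. By the same measure over 14101 genes, the entries most like IL13RA2 were GPC3 (0.966), a cell-surface proteoglycan, PKD2 (0.954), a cation channel, LIMA1 (0.951), an actin-binding protein, MME (0.943), a membrane peptidase, and CPA4 (0.941), a carboxypeptidase. All 5 were themselves higher under IL-4 + IL-13 than with vehicle, at log2 differences of 0.645 to 4.326 (edgeR adjusted p of 0.00705 or lower). The part of this shared treatment difference in the correlations was not tested. Those most like IL4R were FURIN (0.965), a proprotein convertase, NRIP3 (0.965), CSRNP1 (0.964), ITGA3 (0.963), an integrin chain, and MCHR1 (0.959). Those most like IL13RA1 were TES (0.955), AHR (0.944), the aryl hydrocarbon receptor, PRSS23 (0.943), GAL (0.936), the neuropeptide galanin, and SCUBE3 (0.932).

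The kinases and adaptors that sit at these receptors all passed the filter on low counts and none was called. Of 14 such genes, 0 of 14 were called in any of the 5 comparisons, and their median log2 difference between IL-4 + IL-13 and vehicle was -0.12, beside -0.01 over all entries tested. Over all entries, 0 to 1.18% were called in these comparisons, so that no call in a short list, here or below, is near that share. JAK1, which binds IL4R, lay at 303.6 ± 66.6 CPM in vehicle (SD, n = 6), and TYK2, which binds IL13RA1, at 44.83 ± 9.18. JAK3, the kinase of IL2RG, lay at 5.41 ± 0.51 CPM. STAT6, the main transcription factor downstream of IL4R, lay at 80.53 ± 18.42 CPM in vehicle and 72.74 ± 8.43 under IL-4 + IL-13. STAT3 lay at 333.6 ± 107.3 and 283.8 ± 66.7 CPM (edgeR adjusted p = 0.425), and the adaptor IRS2 at 49.85 ± 5.56 and 46.22 ± 4.76 (adjusted p = 0.671).

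Among 5 feedback inhibitors of cytokine receptors, 1 rose and none fell under IL-4 + IL-13, where 0.371% of all entries were called. CISH, which is induced by STAT signalling and dampens it, rose from 1.35 ± 0.39 CPM with vehicle to 26.4 ± 7.76 CPM (log2 fold change 4.40, edgeR adjusted p = 7.07e-06). SOCS1 stood at 3.05 ± 1.13 and 4.65 ± 1.76 CPM (adjusted p = 0.249) and SOCS3 at 74.9 ± 28.9 and 68.24 ± 27.8 CPM (adjusted p = 0.661). The median of the list was -0.09 on the log2 scale.

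The STAT6-linked targets known from other cells had 5 rises and no fall among 18 tested of 23, with a median log2 difference of 0.40. Over all entries 0.371% were called in this comparison, and the list was written with earlier results of these data known. The lipoxygenase ALOX15 rose from 0.24 ± 0.21 to 363.6 ± 118.2 CPM (edgeR adjusted p = 1.28e-10), and the chemokine CCL26 from 0.086 ± 0.049 to 24.38 ± 20 CPM (adjusted p = 1.63e-06). The protease inhibitors SERPINB4 (log2 fold change 2.98) and SERPINB3 (2.60) and the adhesion molecule VCAM1 (1.93) made up the other calls. The matrix protein POSTN, at 152.2 ± 89.9 and 572.7 ± 495.8 CPM, missed the threshold (adjusted p = 0.224), and TGM2 differed by 0.19 on the log2 scale (adjusted p = 0.83). With TGF-β or IL-6, 0 of the 18 were called against vehicle, where 0.143% and 0% of all entries were.

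Other chains that pair with IL2RG gave no call in any comparison, and 4 of 6 had enough reads to be tested. IL21R, the receptor of interleukin-21, was the most abundant of them by mean count and lay at 2.83 ± 1.5 CPM in vehicle cultures and 4.46 ± 3.26 CPM in IL-4 + IL-13 cultures (edgeR adjusted p = 0.784). Of 11 related cytokine receptor chains, none was called against vehicle. IL31RA had the lowest adjusted p of them for IL-4 + IL-13 (log2 difference -0.949, edgeR adjusted p = 0.302). Its log2 difference was -0.855 under TGF-β and -0.804 under IL-6. IL6ST, the signal chain of the IL-6 receptor, lay at 212.4 ± 43.4 CPM in vehicle and LIFR at 101.4 ± 57.5. IL5RA, the interleukin-5 receptor chain, was the 1 call of this list, higher under IL-4 + IL-13 than under TGF-β (log2 difference 1.61, edgeR adjusted p = 0.00716). Against vehicle, its log2 difference was 0.585 under IL-4 + IL-13 (edgeR adjusted p = 0.613) and -1.026 under TGF-β (edgeR adjusted p = 0.287).

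The cultures themselves held almost no message for the ligands. IL4 had 45 reads and IL13 14 reads over the 24 libraries, and 0 of 6 tested ligands of 10 listed were called. IL33, an epithelial alarm cytokine, lay at 1.67 ± 0.84 CPM in vehicle and 0.98 ± 0.84 under IL-4 + IL-13 (edgeR adjusted p = 0.469). Of 3 genes that have been linked to IL13RA2, none was called against vehicle. TGFB1, which encodes TGF-β1, lay at 27.15 ± 13.20 CPM in vehicle, 15.99 ± 7.77 under IL-4 + IL-13 (adjusted p = 0.271) and 39.32 ± 21.44 under TGF-β, and the difference between the last 2 was called (log2 difference -1.25, adjusted p = 0.0159). The partner TMEM219 and the ligand CHI3L1 had log2 differences from vehicle of 0.13 and 0.40 in the IL-4 + IL-13 cultures, with no call.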

How the data were processed

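mRNA of 24 cultures was sequenced (6 batches, 4 treatments). Per the labels and the study's methods, the authors' provider trimmed adapters with Trimmomatic 0.30, aligned to GRCh38.p14 and summed reads by gene. What was deposited are raw counts, not normalized. The aligner, the counting tool, its annotation and the strandedness are not given in the sources used here. NewGene loci, 13161 entries, held 1.97% of the reads.

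Entries with a total count of at least 10 were tested with edgeR 4.0.16 (TMM, robust quasi-likelihood F test, batch and treatment in the model, all 24 libraries, Benjamini-Hochberg adjustment over 29377 entries). Calls required an adjusted p below 0.05 with a log2 fold change above 1 either way. SEs were derived from the F statistic. DESeq2 1.42.0 was run beside it. Script functions were tested on simulated data. Ratios used counts plus 0.5, and their sign-flip tests over batches are exact. Exon lengths came from GENCODE and may differ from the gene models counted.

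Pairing comes from the batch in the labels. P values of the main tests set the mean treatment difference against the variation left between libraries, with level differences between batches taken out. That variation is estimated over all 24 libraries, with information shared across genes. The batches are differentiations of 1 cell line. The members and gene lists were chosen with earlier results of these data known. Named genes are the members, up to 3 genes of each list with the lowest adjusted p for IL-4 + IL-13 and up to 2 with the highest level, and the 5 genes most like each member with a mean count of at least 50. JAK3, TYK2, STAT6, SERPINB3, VCAM1 and single cell type markers were named beyond this rule after their values were seen. IL5RA falls within the rule, and its call against TGF-β was given after the values were seen. Alternatives covered normalization, filters, test, batch term, libraries, symbols, pseudocount and exon length.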

Additional observations from a re-analysis of the deposited data

Results flagged for a closer look

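Batch 1 stood apart from the other batches in 7 of the 28 sets of values examined for a lone sample. The rule marks about 1 in 20 sets of independent, normally distributed values. These sets share batches, and their genes vary together, so that the 7 marks are not separate events and cannot be set against that rate. Its library was far above the other 5 for IL13RA2 with vehicle (256.7 CPM), TGF-β (197.8 CPM), IL-4 + IL-13 (380.2 CPM) and IL-6 (227.5 CPM). The same held for IL13RA1 with vehicle (299.2 CPM) and TGF-β (301.4 CPM) and for IL4R with vehicle (88.66 CPM). Batch 1 also had the lowest neuronal marker sums, at 1558 to 2666 CPM. Its vehicle library had the highest vehicle sums for mesenchymal (11310 CPM against 3550 to 8990) and epithelial markers (876.2 against 276.6 to 401.8). It was also highest for smooth muscle (1391 against 487 to 831.8) and endothelial markers (114 against 24.66 to 80.67). The same held for haematopoietic (75.91 against 33.52 to 53.43) and pluripotency markers (34.53 against 7.246 to 17.68). Its sum of Schwann and glial markers lay within the range of the other batches (70.58 against 63.11 to 132.4). The part of these cell types in the receptor levels was not tested.

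IL2RG under TGF-β was marked in batch 2, where 5 reads gave 0.1467 CPM against 0 in the other 5 libraries, and the log2 ratio to vehicle of that batch was 2.66. The vehicle library of batch 2 had 0 reads, so that the size of this ratio is set by the prior count and is no measure of a fold.

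The effect of IL-4 + IL-13 on IL13RA2 differed from those of the other cytokines in the direct tests, by a log2 difference of 1.535 from TGF-β and of 1.169 from IL-6, with edgeR adjusted p values of 6.01e-05 and 0.00174 and a higher level in 6 of 6 batches in each.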

How the results depend on the processing

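The call of IL13RA2 under IL-4 + IL-13 rested on the replicate block. With no replicate block, that is without pairing by batch, its log2 difference was 0.959 from vehicle, 1.238 from TGF-β and 0.95 from IL-6, each with an edgeR adjusted p of 1, and 0 members were called, while 13, 49 and 13 of all entries were. With only the 2 groups compared in the fit, the difference from IL-6 was 1.119 (adjusted p = 0.0787), with 0 members called. Every other alternative run kept the IL13RA2 calls. Leaving out each batch in turn gave 1.17 to 1.45 from vehicle, 1.35 to 1.71 from TGF-β and 1.01 to 1.28 from IL-6. The vehicle log2 ratio of IL4R to IL13RA1 per kilobase was -1.72 with the longest transcript, and -2.37 to -2.14 over the leave-one-out fits. The cause of these changes was not tested.

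Differences that were not called changed sign in places. For IL13RA1 under TGF-β the log2 difference was 0.013 with no replicate block, 0.007 with only the 2 groups, 0.003 without IL-6 and with summed entries, 0.107 over batches 3 to 6 and 0.091 without the vehicle library of batch 2, an alternative chosen after seeing the data. That alternative gave 0.018 for IL4R and 0.019 for IL13RA1 under IL-6. Over batches 3 to 6, IL4R was at 0.107 under IL-4 + IL-13 and 0.199 under IL-6, IL13RA1 at 0.097 under IL-6, IL2RG at -0.177 between IL-4 + IL-13 and IL-6, and the ratio of IL4R to IL13RA1 at 0.194 under IL-4 + IL-13 and 0.112 under IL-6.

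Over the leave-one-out fits, IL2RG ranged from -0.081 to 4.383 between IL-4 + IL-13 and TGF-β and from -0.201 to 2.024 between IL-4 + IL-13 and IL-6. IL13RA1 ranged from -0.077 to 0.077 under TGF-β and from -0.135 to 0.027 under IL-6, and IL4R from -0.396 to 0.031 under IL-6 and from -0.04 to 0.399 under TGF-β. The ratio of IL4R to IL13RA1 ranged from -0.159 to 0.038 under IL-4 + IL-13, from -0.22 to 0.026 under IL-6 and from 0.076 to 0.34 under TGF-β. The stricter low-count filter left out IL2RG, whose depth limits any statement on it.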
